A study of Mus musculus with 64 samples.

Results

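A group of 10 mouse genes that carry amino acids into cells or make them, known as targets of the stress transcription factor ATF4, was described in microglia with and without the Rieske iron-sulphur protein (RISP) of respiratory complex III, which is encoded by Uqcrfs1. The genes were chosen by name, with earlier results of these data known. Each of the 10 symbols matched 1 of the 45708 rows of the deposited count table. They are the transporter genes Slc7a5, Slc3a2, Slc1a4, Slc1a5, Slc38a1, Slc38a2, Slc6a9 and Slc7a1 and the synthesis genes Asns and Pycr1. Microglia, the resident macrophages of the brain, had been sorted from whole adult mouse brain by CD11b and CD45.2, and total RNA was sequenced. The genotypes are labelled RISP KO, RISP Het and RISP WT, and the labels name neither a Cre driver nor a breeding scheme. From untreated (naive) adults there were 13 libraries of KO, 13 of Het and 5 of WT. For cuprizone, a copper chelator that strips myelin, there were 6 of KO and 4 of Het. The CSF1R inhibitor PLX3397 depletes microglia; its depletion groups held 2 KO, 2 Het and 4 WT samples and its repopulation groups 4 samples of each genotype. Another 3 libraries came from old naive Het mice, so there were 64 libraries in 12 groups. Dose, day and sex are not given, nor is it said whether replicates are separate animals, so p-values measure the spread between libraries, which may be technical. Per the labels, untreated KO and WT libraries were read on a NextSeq 500 and all others on a NextSeq2000. In naive mice genotype and instrument therefore cannot be told apart for KO against Het or for Het against WT. Nor can treatment and instrument be told apart within KO or within WT.

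ATF4 is translated when the integrated stress response slows general protein synthesis, for instance when amino acids run short or mitochondria fail. It binds, often with a C/EBP partner, to C/EBP-ATF response elements and raises genes for amino acid uptake, amino acid synthesis and tRNA charging. Slc7a5 encodes LAT1, the exchanger for leucine and other large neutral amino acids, which reaches the cell surface only as a dimer with 4F2hc, encoded by Slc3a2. Slc1a4 and Slc1a5 encode the neutral amino acid exchangers ASCT1 and ASCT2, and Slc38a1 and Slc38a2 the sodium-coupled carriers SNAT1 and SNAT2, which bring in glutamine and other small neutral amino acids. Slc6a9 encodes the glycine transporter GlyT1, best known from astrocytes, and Slc7a1 the carrier CAT1 for arginine and lysine. Asns makes asparagine from aspartate and glutamine, and Pycr1 carries out the last step of proline synthesis in mitochondria.

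The sequence of the response element is shown first because some of these genes hold it next to their start. RefSeq promoter windows (GRCm38.p6, 250 bases before to 50 bases after each annotated start) were at hand for 7 of the 10 genes, namely Slc3a2, Slc1a4, Slc38a2, Slc6a9, Slc7a1, Asns and Pycr1, and not for Slc7a5, Slc1a5 or Slc38a1. They were searched on both strands for TGATGNAA, the core of the element. Of these 7 genes, 3 held a match, against 4.51% of all 27025 genes with a window (3.97% of 32851 windows). Among 21 further genes of the stress response the match was in 6, among 28 other amino acid transporters in 2, and among 18 other genes of amino acid synthesis and turnover in 1. The stretches from 150 bases before to 10 bases after the start are given 5′ to 3′ on the strand of the gene, which is the minus strand for all of them, with the match in capitals. They are Asns at chr6:7693200-7693359, Slc1a4 at chr11:20332704-20332863 and Pycr1 at chr11:120643739-120643898.
Asns: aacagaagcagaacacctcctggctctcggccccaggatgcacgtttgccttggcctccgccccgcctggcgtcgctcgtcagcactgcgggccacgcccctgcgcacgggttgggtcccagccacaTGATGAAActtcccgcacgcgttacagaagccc
Slc1a4: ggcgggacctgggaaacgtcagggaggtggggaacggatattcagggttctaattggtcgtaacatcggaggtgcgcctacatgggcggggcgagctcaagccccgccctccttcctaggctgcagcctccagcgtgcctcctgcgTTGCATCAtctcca
Pycr1: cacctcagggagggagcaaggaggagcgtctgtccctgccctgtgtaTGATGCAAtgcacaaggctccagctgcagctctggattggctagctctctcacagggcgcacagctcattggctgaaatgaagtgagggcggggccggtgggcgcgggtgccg
Counted from the annotated start, the match begins at -23 in Asns, where it reads TGATGAAA, and at -103 in Pycr1, where it reads TGATGCAA. In Slc1a4 it begins at -4, spans the start and reads TGATGCAA on the opposite strand. The windows of Slc3a2, Slc38a2, Slc6a9 and Slc7a1 do not hold these letters. A match is a description of the sequence and no evidence that a factor binds there.

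Libraries held between 2.7 and 24 M counts (median 11.9 M). The libraries fell into sets that the labels do not name: 34 held under 1% of their counts on the noncoding genes Gm26917 and Yam1 (called ncRNA-poor here), and the others were divided by depth into 7 deep, 13 middle-depth and 10 shallow libraries, the last being all of the cuprizone libraries. Groups were compared inside these sets. The naive KO libraries 1 to 5, Het 1 to 4 and WT 1 to 5 are ncRNA-poor, as are all PLX3397 libraries, KO 6 to 11 and Het 5 to 11 are middle-depth, and KO 12 and 13 with Het 12 and 13 are deep. By Y-linked genes 41 libraries read as male and 23 as female, unevenly between groups. In the ncRNA-poor naive set KO 2 and Het 2 to 4 read as female and the others as male. At repopulation KO 1, Het 1 to 3 and WT 1 and 2 read as female. Uqcrfs1 lay at 5.33 to 9.32 counts per M after TMM scaling (CPM) in ncRNA-poor naive KO libraries against 18.99 to 43.9 CPM in their Het and WT controls, and KO and Het ranges did not overlap in any set or treatment. Microglial markers were abundant in every library (Csf1r 3696 to 15969 CPM, P2ry12 1140.1 to 4758 CPM). The adjusted p-values below are from edgeR's quasi-likelihood test with Benjamini-Hochberg adjustment over 18413 genes, errors of log2 fold changes are standard errors, and a gene is said to have risen or fallen where its adjusted p was under 0.05.

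All 10 genes passed the filter on low counts, at very different levels. Divided by the merged exon length of each gene in GENCODE vM21, the 5 naive WT libraries held Slc3a2 at 161 ± 5.88 CPM per kb (SD, n = 5) and Slc7a5 at 52.9 ± 7.74, followed by Slc38a2 at 20.1 ± 1.98. Slc38a1, Slc1a4 and Slc7a1 came next at 8.10 ± 0.43, 6.01 ± 0.57 and 4.22 ± 0.81 CPM per kb. Slc6a9 (3.51 ± 1.33) could not be told from Slc7a1 by these spreads, nor Asns (0.58 ± 0.27) from Pycr1 (0.33 ± 0.29), and Slc1a5 lay between these pairs at 1.72 ± 0.39 CPM per kb. In the 4 repopulated KO libraries Slc3a2 and Slc7a5 were still first and second, at 214 ± 19.7 and 135 ± 15.9 CPM per kb. There Slc1a4, Slc7a1 and Asns all stood above Slc38a1, with Asns at 9.62 ± 1.67 against 8.57 ± 0.75 CPM per kb, a difference smaller than their combined SDs. This order depends on the merged exon lengths, 17.236 kb for Slc38a1 and 2.735 kb for Asns, which need not be those of the transcripts expressed. Before division by length Slc38a1 had the highest mean of these genes, 148 CPM against 137 for Slc7a1, 82.0 for Slc1a4 and 26.3 for Asns.

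**Figure D1:**
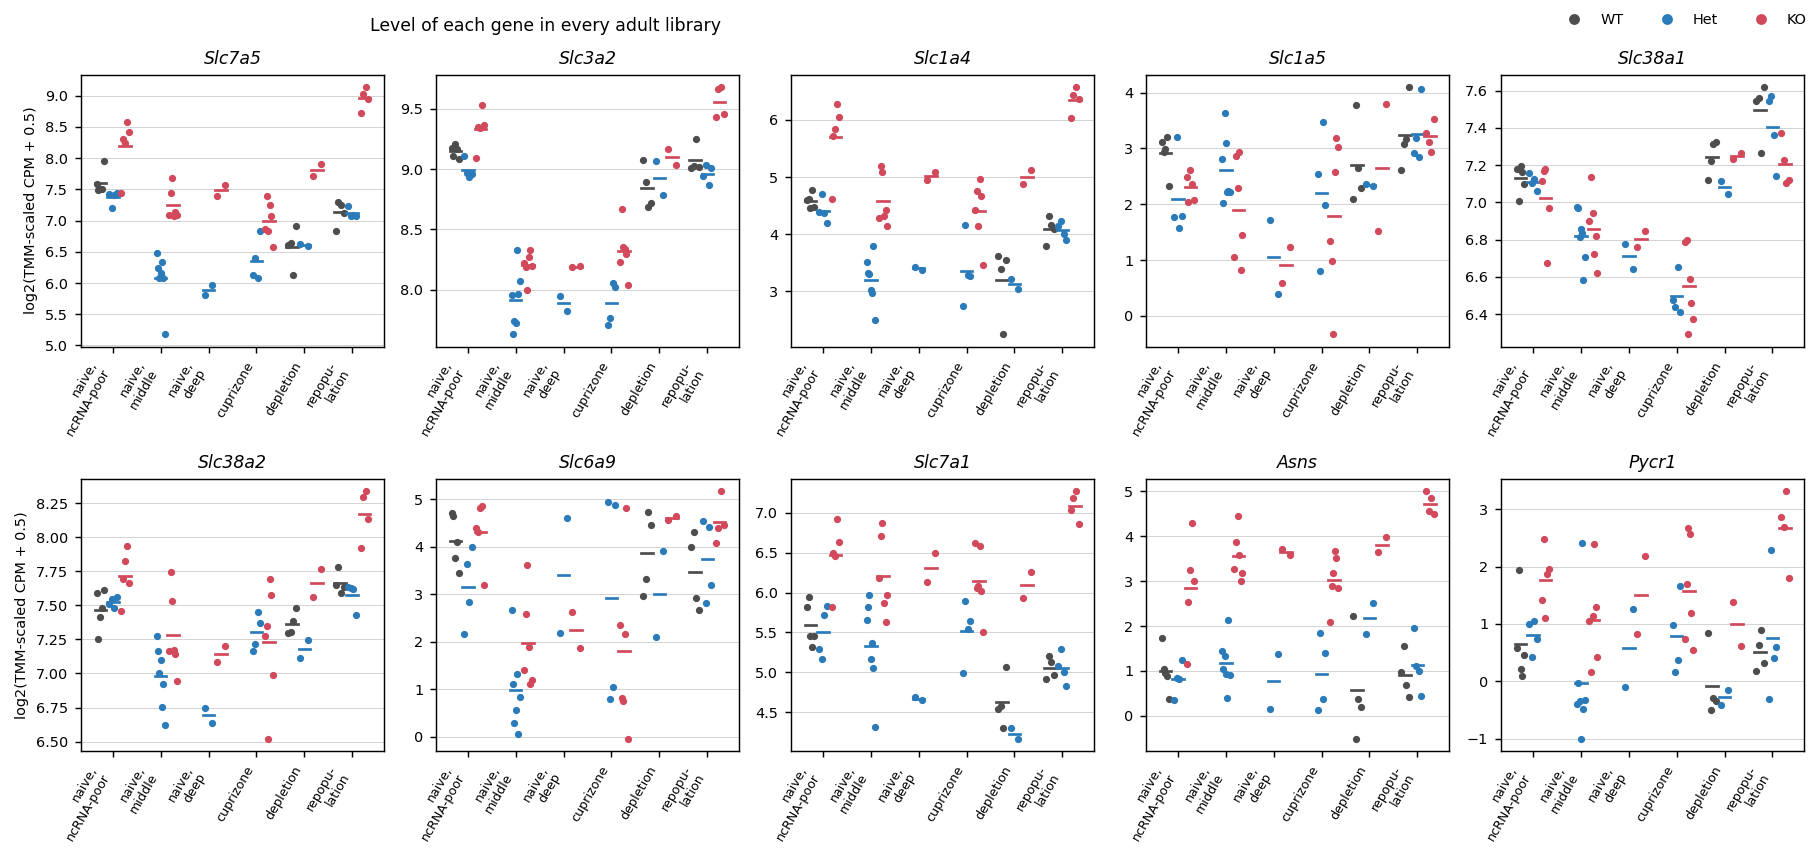
TMM-scaled level of each gene, as log2(CPM + 0.5), in the adult libraries (points, with group means as bars) by treatment and library set, for WT, Het and KO. At repopulation the KO libraries of Slc7a5, Slc3a2, Slc1a4, Slc38a2, Slc7a1 and Asns all lie above the control libraries, while Slc1a5 and Slc38a1 overlap with them; each panel has its own vertical scale.

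In untreated mice the RISP KO was first compared within the ncRNA-poor set, which holds both kinds of control. Slc7a5, Slc1a4, Slc7a1 and Asns rose against Het and against WT, so that 4 of 10 genes were called higher and 0 lower in each comparison. Of all 18413 genes 1.48% were called higher and 1.25% lower against Het, and 1.15% and 0.787% against WT. The KO libraries are shared by both comparisons. The median log2 fold change of the 10 genes was 0.93 against Het and 0.44 against WT, where the median gene lay at 0.03 and 0.00.

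Slc7a5 stood at 173, 315, 301, 383 and 341 CPM in KO 1 to 5, at 172, 146, 169 and 174 CPM in Het 1 to 4 and at 191, 179.5, 182, 181 and 247 CPM in WT 1 to 5. KO 1 lay at the level of the controls, and KO 2 to 5 lay above all of them. The log2 fold change was 0.87 ± 0.19 against Het (adjusted p = 0.00289) and 0.63 ± 0.18 against WT (adjusted p = 0.0425). Its partner Slc3a2 stood at 545, 652, 648, 741 and 661 CPM in KO, 553, 499, 488 and 498 CPM in Het and 577, 552, 593, 575 and 541 CPM in WT. Again KO 2 to 5 were the highest, but by a small margin, and the differences of 0.35 ± 0.11 and 0.19 ± 0.10 did not pass (adjusted p = 0.0687 and 0.478).

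Slc1a4 (ASCT1) stood at 24.1, 52.2, 57.1, 77.3 and 65.5 CPM in KO, 20.4, 25.4, 20.2 and 17.8 CPM in Het and 23.8, 24.03, 21.5, 27.00 and 21.7 CPM in WT. It rose by 1.40 ± 0.27 against Het (adjusted p = 0.00087) and by 1.23 ± 0.25 against WT (adjusted p = 0.0032). Slc7a1 (CAT1) stood at 55.8, 89.8, 87.3, 121 and 98.99 CPM in KO, 38.8, 35.5, 51.9 and 56.6 CPM in Het and 55.9, 61.1, 43.3, 39.4 and 43.4 CPM in WT. It rose by 0.99 ± 0.24 (adjusted p = 0.0104) and 0.90 ± 0.23 (adjusted p = 0.0187). In both genes KO 1 fell among the controls and the other KO libraries above them.

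Asns, the asparagine synthetase, had the widest separation on the log2 scale of the genes called. Its level was 1.71, 5.33, 8.98, 19.2 and 7.52 CPM in KO 1 to 5, 0.78, 1.30, 1.28 and 1.86 CPM in Het and 2.80, 1.57, 1.45, 1.34 and 0.80 CPM in WT, resting on 23 to 226 counts per library in KO and 12 to 27 in Het. It rose by 2.70 ± 0.56 against Het (adjusted p = 0.002) and by 2.41 ± 0.51 against WT (adjusted p = 0.00455). KO 1 was again inside the control range, and KO 4 was the highest of the KO libraries in Slc7a5, Slc3a2, Slc1a4, Slc38a2, Slc7a1 and Asns.

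For these same 6 genes KO 2 to 5 all lay above all 9 control libraries while KO 1 did not. Among all genes 4.05% had 4 or more of the 5 KO libraries above the controls. The library labelled KO 1 held 8.65 CPM of Uqcrfs1, inside the range of the other KO libraries. Without it the fold changes against Het were 1.02 for Slc7a5, 1.59 for Slc1a4, 1.12 for Slc7a1 and 2.96 for Asns, and Slc3a2 passed as well (0.41, adjusted p = 0.0247).

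**Figure D2:**
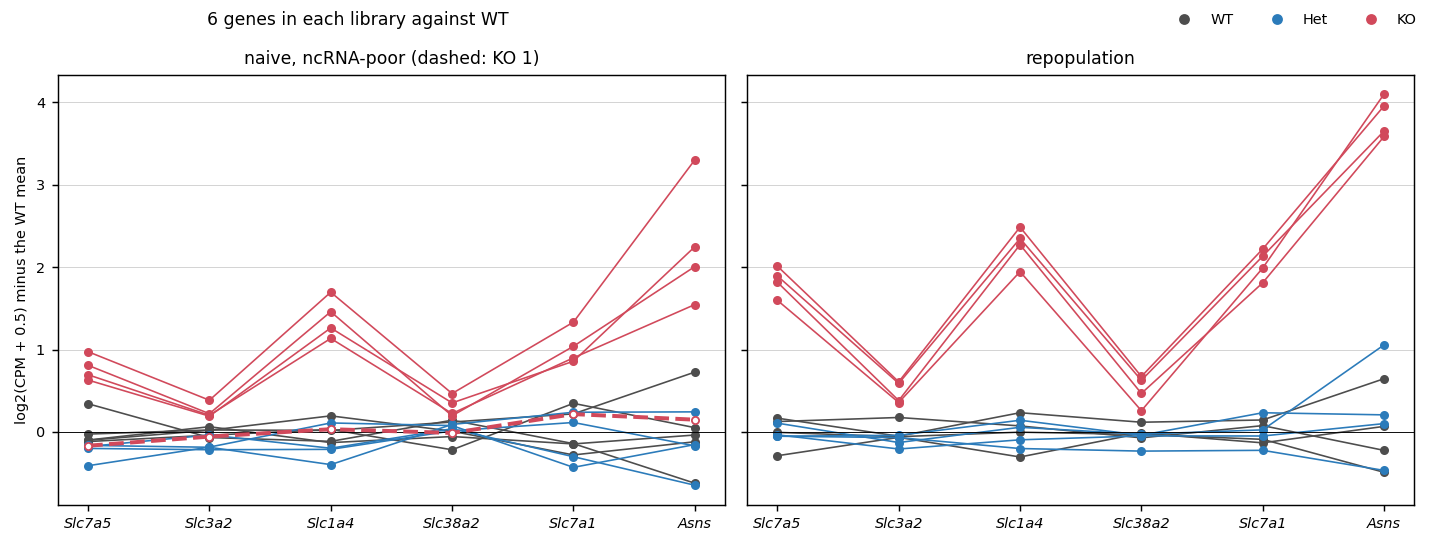
Each line is 1 ncRNA-poor library of the naive (left) or repopulation group (right), and its points give log2(CPM + 0.5) of 6 genes minus the mean of the WT libraries of the same treatment. The naive library KO 1 (dashed) runs among the WT and Het lines, whereas KO 2 to 5 and all 4 repopulated KO libraries run above them in each of the 6 genes.

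The remaining genes showed less. Slc38a2 (SNAT2) stood at 175 to 244 CPM in KO against 152 to 195 CPM in the controls, and its differences of 0.20 ± 0.14 and 0.25 ± 0.13 did not pass. No KO library of Slc38a1 (SNAT1) was above the controls, at 102 to 145 CPM in KO and 128 to 146 CPM in controls, and the 95% intervals of its log2 fold change were -0.28 to 0.13 against Het and -0.29 to 0.10 against WT. Slc1a5 (3.59 to 5.62 CPM in KO, 2.49 to 8.75 CPM in controls), Slc6a9 (8.62 to 28.5 and 4.01 to 25.7 CPM) and Pycr1 (1.65 to 5.08 and 0.56 to 3.34 CPM) varied so widely between libraries that their intervals were broad. For Pycr1 the interval against Het was -0.25 to 2.79 and for Slc6a9 -0.28 to 2.56.

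Several calls in this set rest on few libraries. Against WT, with only the 10 libraries compared in the model, Slc1a4 alone passed, and the call of Slc7a5 was lost with DESeq2's size factors or with any 1 of 8 of the 10 libraries left out (adjusted p = 0.0629, and 0.0824 to 0.213; KO 2 to 5 and WT 1 to 4). Also against WT, the call of Slc7a1 was lost without KO 4, KO 5, WT 3, WT 4 or WT 5 (adjusted p = 0.0542 to 0.116) and that of Asns without KO 4 (1.88, adjusted p = 0.0668). Against Het, the call of Slc7a1 was lost without KO 4, Het 1 or Het 2 (adjusted p = 0.0646, 0.0588 and 0.0642). A division of these naive libraries that was chosen after their first principal component had been seen puts KO 5, Het 1 to 4 and WT 5 apart from KO 1 to 4 and WT 1 to 4. With that division in the model the fold changes against Het of Slc7a1 and Asns were 0.98 and 2.23 and no longer passed (adjusted p = 0.21 and 0.165). The 8 microglial markers summed to 35531 to 41704 CPM in KO, below the 42311 to 47524 CPM in Het. Their sums in WT, 38779 to 47165 CPM, overlapped with those in KO. Of these 8 markers 0 had a positive log2 fold change against Het or WT (medians -0.22 and -0.17), and 0 were called. Of the markers of other cell types, 0 passed against Het, and against WT 1 of 10 neuronal and 1 of 5 monocyte markers were lower. The summed level of 10 endothelial markers was 121 to 545 CPM in KO against 263 to 827 in Het and 421 to 637 in WT, that of 7 border macrophage markers 179 to 584 CPM against 544 to 841 and 549 to 1268, and that of 5 monocyte markers 5.26 to 19.98 CPM against 20.2 to 24.9 and 25.9 to 50.0. Against Het other lists lay the opposite way: 9 of 10 astrocyte, 9 of 9 oligodendrocyte and 5 of 5 red blood cell markers had positive log2 fold changes, with medians of 1.11, 0.78 and 0.61. Against WT this held for 9 of 9 oligodendrocyte markers (median 0.59), while the medians of the neuronal and astrocyte lists were -1.18 and -0.04. The summed astrocyte markers ranged over 51.8 to 255 CPM in KO, 62.4 to 159.7 in Het and 59.9 to 271 in WT, the oligodendrocyte markers over 441 to 2780 CPM, 504 to 1494 and 726 to 1868, the neuronal markers over 3.22 to 19.8 CPM, 5.57 to 12.2 and 3.77 to 33.1, and the red blood cell markers over 2114 to 18047 CPM, 3641 to 7741 and 4588 to 9751. None of these markers was at 0 in all libraries of a group. Their part in the results was not tested. In sorted bulk samples fewer cells of a type and less RNA per cell cannot be told apart.

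The middle-depth naive libraries form a separate set of 6 KO and 7 Het libraries. Slc7a5, Slc3a2, Slc1a4, Slc7a1 and Asns rose, 5 of 10 genes, where 7.68% of all genes were called higher and 6.07% lower, and 0 fell. The split of all calls was 55.9% higher with TMM and 45.2% with DESeq2's size factors. In Slc7a5, Slc1a4 and Asns every KO library lay above every Het library, which held for 0.967% of all genes. Of the markers, 1 of 10 neuronal ones was called higher (8 positive, median 0.51) and 1 of 10 endothelial ones lower (3 positive, median -0.38). The neuronal markers summed to 16.1 to 59.5 CPM in KO and 4.79 to 56.2 in Het, the endothelial ones to 31.1 to 106 and 42.9 to 143. Ly6c1 was at 0 in both groups and Emcn in KO. No marker of the other lists was called, and the part of the markers in the results was not tested.

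Slc7a5 ranged from 134 to 206 CPM (median 138) in KO and from 35.7 to 88.6 CPM (median 71.3) in Het. The KO range began well above the highest Het library, and Het 11 was the lowest. Slc7a5 rose by 1.15 ± 0.16 (adjusted p = 5.33e-07). Slc1a4 ranged from 17.2 to 36.03 CPM (median 20.2) in KO and from 5.14 to 13.4 CPM (median 9.43) in Het, a rise of 1.43 ± 0.23 (adjusted p = 1.26e-05). Asns ranged from 7.54 to 21.3 CPM (median 10.4) in KO and from 0.82 to 3.88 CPM (median 1.55) in Het. This was again the largest rise among the 10 genes, at 2.66 ± 0.45 (adjusted p = 3.62e-05).

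Slc7a1 ranged from 48.9 to 117 CPM (median 67.4) in KO and from 19.4 to 62.2 CPM (median 40.7) in Het, with 4 of 6 KO libraries above all Het libraries. It rose by 0.87 ± 0.20 (adjusted p = 0.0017). Slc3a2 ranged from 256 to 320.3 CPM (median 295) in KO and from 198 to 322 CPM (median 248) in Het, where Het 9 was higher than every KO library. Its rise of 0.27 ± 0.09 passed narrowly (adjusted p = 0.034) and was lost with DESeq2's size factors (adjusted p = 0.0572) or without KO 6, 9, 10 or 11 or Het 6, 7 or 8 (adjusted p = 0.0501 to 0.0939). In the 13 libraries alone neither Slc3a2 (adjusted p = 0.244) nor Slc7a1 (adjusted p = 0.0778) passed.

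Slc38a2 was higher by 0.32 ± 0.12 (adjusted p = 0.0585), and Slc38a1 by 0.04 ± 0.09 with an interval of -0.13 to 0.21. Slc1a5 (-0.64 ± 0.46) and Slc6a9 (1.22 ± 0.65) did not pass. Pycr1 ranged from 0.61 to 4.75 CPM (median 1.63) in KO and from 0 to 4.81 CPM (median 0.29) in Het. A single Het library, Het 9, held 4.81 CPM where the other 6 held at most 0.48, while none was counted in Het 8 (0 counts; up to 0.43 CPM remain possible by counting error alone). The fold change of Pycr1 was 1.01 ± 0.63 and did not pass with Het 9, and it was 2.83 without it (adjusted p = 0.000928).

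The deep naive libraries, 2 KO and 2 Het, gave calls for Slc7a5, Slc1a4 and Slc7a1, 3 of 10 genes, where 0.348% of all genes were called higher and 0.223% lower. No cell type marker was called there. Of the neuronal markers 8 of 10 were positive (median 1.75). Of the oligodendrocyte, red blood cell, neutrophil and lymphocyte markers 0 of 9, 0 of 5, 1 of 5 and 1 of 5 were (medians -0.83, -0.80, -1.01 and -0.96). The other lists had medians of -0.16 to 0.25. The part of the markers in the results was not tested. Slc7a5 stood at 168 and 189.6 CPM in KO and 55.4 and 62.4 CPM in Het (1.60 ± 0.28, adjusted p = 0.000861). Slc1a4 stood at 30.3 and 33.4 and 10.3 and 9.88 CPM (1.66 ± 0.40), and Slc7a1 at 69.4 and 89.9 and 25.2 and 24.6 CPM (1.68 ± 0.36). Asns stood at 12.6 and 11.4 CPM in KO and 0.62 and 2.11 CPM in Het, and its difference of 3.12 ± 0.82 did not pass (adjusted p = 0.0591). The calls of Slc1a4 and Slc7a1 were lost without any 1 of these 4 libraries (adjusted p = 0.199 to 0.409 and 0.0777 to 0.258), and that of Slc7a5 without Het 12 (adjusted p = 0.0982).

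Whether the KO effect differed between the ncRNA-poor and middle-depth naive sets was tested directly. None of the 10 genes passed, where 0.543% of all genes did. For Slc7a5 the difference was 0.28 ± 0.24 with an interval of -0.21 to 0.77, and for Asns -0.04 ± 0.64 with an interval of -1.33 to 1.25. By this test and DESeq2's 0 of the genes passed, and at an unadjusted p under 0.05 0 did.

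**Figure D3:**
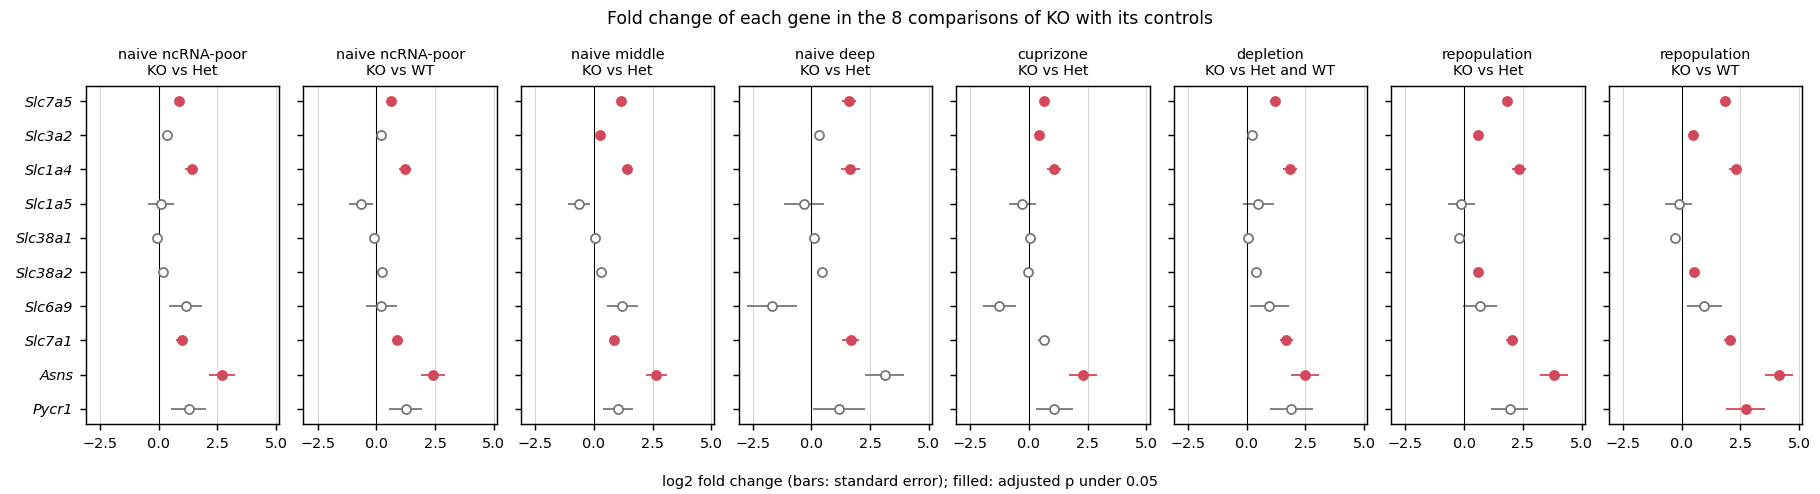
Log2 fold change of each gene (points) with its standard error (bars) in the 8 comparisons of KO with Het, WT or the mean of both. Filled points passed at an adjusted p under 0.05 by edgeR's quasi-likelihood test, which was so for Slc7a5 and Slc1a4 in all 8 panels, and the repopulation panels hold the largest values of Slc7a5, Slc1a4, Slc7a1 and Asns.

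Under cuprizone the libraries were shallow (at most 5.10 M counts), with 6 KO and 4 Het. Slc7a5, Slc3a2, Slc1a4 and Asns rose, 4 of 10 genes, where 8.16% of all genes were called higher and 5.83% lower, and 0 fell. The split of all calls was 58.3% higher with TMM and 42.8% with DESeq2's size factors. Asns ranged from 3.77 to 12.3 CPM (median 7.75) in KO and stood at 0.59, 3.12, 0.79 and 2.14 CPM in Het, from 13 to 43 counts in KO and 2 to 10 in Het. Every KO library was above every Het library, as in 3.91% of all genes, and the rise was 2.31 ± 0.61 (adjusted p = 0.00582).

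Slc7a5 ranged from 95.2 to 167 CPM (median 125) in KO and stood at 69.8, 83.6, 67.3 and 113 CPM in Het. Slc3a2 ranged from 262 to 407 CPM (median 318) in KO and stood at 209, 217, 266 and 259 CPM in Het. For both, 5 of 6 KO libraries lay above all Het libraries and KO 6 did not, and the rises were 0.64 ± 0.19 (adjusted p = 0.0149) and 0.44 ± 0.11 (adjusted p = 0.00274). Slc1a4 ranged from 10.5 to 30.6 CPM (median 22.95) in KO and stood at 6.19, 17.5, 9.24 and 9.10 CPM in Het, a rise of 1.06 ± 0.29 (adjusted p = 0.00799). Het 2 was high and KO 6 low for Slc1a4, so the ranges overlapped. Slc7a1 was higher by 0.64 ± 0.24 and did not pass (adjusted p = 0.0625), though without KO 6 it did (0.75, adjusted p = 0.0285).

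With only the 10 cuprizone libraries in the model Asns alone passed, while Slc7a5, Slc3a2 and Slc1a4 had adjusted p = 0.119, 0.168 and 0.132. The call of Slc7a5 was also lost without Het 1 or Het 3 (adjusted p = 0.0672 and 0.0703) and that of Slc1a4 without Het 1 (adjusted p = 0.0555). Slc38a2 (-0.02 ± 0.14), Slc38a1 (0.06 ± 0.10), Slc1a5 (-0.28 ± 0.57) and Pycr1 (1.08 ± 0.80) did not pass. Slc6a9 split the libraries in another way. It stood at 30.3, 1.25, 1.58 and 29.2 CPM in Het 1 to 4, and KO 5 held 27.5 CPM where the other KO libraries held 0.48 to 4.64. The fold change of Slc6a9 was -1.26 ± 0.71 and did not pass, and without KO 5 it was -2.79 (adjusted p = 0.00583). The endothelial marker sum was 36.8 to 119 CPM in KO and 40.6 to 72.3 CPM in Het, with Slco1a4 and Emcn at 0 counts in all KO and Ly6c1 in all Het libraries. The summed astrocyte markers were at 7.45 to 17.4 CPM in KO and 3.43 to 13.7 CPM in Het, with Gjb6 at 0 in both groups and Aqp4 and Fgfr3 at 0 in Het. The neuronal markers summed to 7.45 to 18.9 CPM in KO and 0.31 to 16.4 CPM in Het, with 4 of 10 at 0 in all Het libraries (Snap25, Tubb3, Stmn2 and Gad1). Of the markers, 2 of 8 microglial, 1 of 10 endothelial and 1 of 10 neuronal ones were called higher and 1 of 5 lymphocyte ones lower, and their part in the results was not tested.

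The KO effect under cuprizone minus that in middle-depth naive mice passed in 0 of 10 genes, where 0.179% of all genes passed. Slc7a5 differed by -0.52 ± 0.24 with an interval of -0.998 to -0.03, and Slc6a9 by -2.48 ± 0.96, which passed without KO cuprizone 5 (-4.01, adjusted p = 0.0387). By DESeq2's test 0 passed as well, and 2 did at an unadjusted p under 0.05. Per the labels, KO and Het were read on different instruments in naive mice and on the same one under cuprizone. The part of the instrument in this difference was not tested.

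After PLX3397 depletion 2 KO libraries were compared with the mean of 2 Het and 4 WT libraries. Slc7a5, Slc1a4, Slc7a1 and Asns rose, 4 of 10 genes, where 1.1% of all genes were called higher and 0.614% lower, and all 10 fold changes were positive. In these 4 genes and Slc38a2 both KO libraries lay above all 6 controls, as in 7.54% of all genes. Slc7a5 stood at 209 and 238 CPM in KO, 98.3 and 95.9 CPM in Het and 97.00, 99.4, 69.1 and 120.2 CPM in WT (1.21 ± 0.22, adjusted p = 0.000859). Without KO 2 that call was lost (1.11, adjusted p = 0.0569). The 8 microglial markers summed to 33214 to 33711 CPM in KO, below both control groups (Het 41282 to 47268, WT 40262 to 42809), and 0 of 8 had a positive fold change, with 1 called lower. All 5 neutrophil markers had positive fold changes (median 4.15, 0 called), and 1 of 5 monocyte markers was called higher. The neutrophil sums were 0 and 54.6 CPM in the 2 KO libraries against 0.85 to 3.73 in Het and 0.24 to 2.82 in WT, with Ly6g at 0 in both control groups, and the monocyte sums were 3.56 and 56.2 CPM against 3.72 to 5.85 and 3.37 to 9.82. Their part in the results was not tested.

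Slc1a4 stood at 28.9 and 34.2 CPM in KO, 8.79 and 7.77 CPM in Het and 11.8, 9.99, 4.25 and 11.2 CPM in WT (1.84 ± 0.31, adjusted p = 0.000289). Slc7a1 stood at 60.3 and 76.1 CPM in KO, 19.1 and 17.5 CPM in Het and 22.7, 23.4, 19.3 and 33.1 CPM in WT (1.68 ± 0.28, adjusted p = 0.000256). Asns stood at 11.97 and 15.3 CPM in KO, 3.04 and 5.25 CPM in Het and 4.15, 0.20, 0.80 and 0.65 CPM in WT (2.48 ± 0.59, adjusted p = 0.013). The controls of Asns were uneven, with both Het libraries and WT 1 above the other 3 WT libraries. The call of Asns was lost in the 8 libraries alone (adjusted p = 0.229) and without Het 1, KO 1 or KO 2 (adjusted p = 0.0917, 0.131 and 0.167). Slc3a2, at 0.21 ± 0.13, Slc38a2, at 0.39 ± 0.17, and Pycr1, at 1.91 ± 0.91, did not pass.

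In WT mice Slc7a5, Slc1a4 and Slc7a1 stood lower at depletion than in naive animals. Slc7a5 fell by 1.02 ± 0.19 on the log2 scale, Slc1a4 by 1.34 ± 0.28 and Slc7a1 by 0.98 ± 0.24, 3 of 10 genes, where 2.87% of all genes passed in either direction. The call of Slc7a1 was lost without WT naive 2 or WT depletion 1, 2 or 3 (adjusted p = 0.0507 to 0.0741). The WT ranges of Slc7a5, at 180 to 247 CPM in naive and 69.1 to 120 CPM in depletion libraries, did not overlap. Naive WT libraries were read on the NextSeq 500 and depletion libraries on the NextSeq2000, so treatment and instrument cannot be told apart here. All 7 border macrophage markers also fell (median -2.59, summed 549 to 1268 CPM in naive and 88.0 to 183 CPM in depletion libraries), as did 2 of 8 microglial, 1 of 10 endothelial and 1 of 5 monocyte markers, and their part in the results was not tested. In KO mice, with the same change of instrument, 0 of 10 genes passed between depletion and naive, where 1.29% of all genes did, with -0.44 ± 0.24 for Slc7a5 and 0.68 ± 0.61 for Asns, and 1 passed at an unadjusted p under 0.05. The KO effect at depletion minus that in the ncRNA-poor naive set passed in 0 of 10 genes (0.0163% of all genes). For Slc7a5 it was 0.46 ± 0.27 with an interval of -0.09 to 1.01, and 1 gene passed at an unadjusted p under 0.05. The naive KO and WT libraries were read on another instrument than the rest, whose part in this difference was not tested.

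Repopulation, in which microglia return after the drug is withdrawn, gave the largest fold changes of Slc7a5, Slc1a4, Slc7a1 and Asns among the 8 comparisons of KO with controls. Against Het, Slc7a5, Slc3a2, Slc1a4, Slc38a2, Slc7a1 and Asns rose, 6 of 10 genes, where 2.15% of all genes were called higher and 2.48% lower. Against WT the same 6 genes and Pycr1 rose, 7 of 10, where 2.26% of all genes were called higher and 2.53% lower, and 0 of the 10 fell in either comparison. In these 6 genes all 4 KO libraries lay above all 8 controls, as in 5.5% of all genes. The median log2 fold change of the 10 genes was 1.26 against Het and 1.40 against WT, with the median gene at 0.00 in both.

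Slc7a5 stood at 423, 519, 564 and 492.8 CPM in KO, 150.3, 135, 136 and 135 CPM in Het and 114, 157, 152 and 139 CPM in WT. The lowest KO library was above the highest control by a wide margin, and the rises were 1.85 ± 0.20 against Het (adjusted p = 6.12e-09) and 1.83 ± 0.20 against WT (adjusted p = 5.08e-09). Slc3a2 stood at 690.1, 811, 821 and 702 CPM in KO, 492.8, 524, 467 and 514 CPM in Het and 515, 519.7, 608 and 517 CPM in WT. It rose by 0.60 ± 0.11 (adjusted p = 0.000357) and 0.49 ± 0.11 (adjusted p = 0.00484), less than its partner.

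Slc1a4 stood at 65.1, 86.2, 94.9 and 81.8 CPM in KO, 17.2, 18.3, 15.4 and 14.3 CPM in Het and 13.3, 19.5, 17.4 and 16.5 CPM in WT (2.33 ± 0.29 and 2.30 ± 0.29, adjusted p = 8.95e-08 and 1.15e-07). Slc7a1 stood at 131, 145, 154 and 116 CPM in KO, 33.3, 38.5, 31.6 and 27.9 CPM in Het and 29.8, 36.2, 34.5 and 30.7 CPM in WT (2.06 ± 0.26 and 2.06 ± 0.26, adjusted p = 1.25e-07 and 1.19e-07). In both genes the lowest KO library was well above the highest control. Slc38a2 stood at 242, 313, 323 and 280.0 CPM in KO, 199, 197, 196 and 172 CPM in Het and 200.3, 219.6, 193 and 198 CPM in WT, and KO 1 lay nearest to the controls. Its rises were 0.60 ± 0.15 (adjusted p = 0.00779) and 0.51 ± 0.15 (adjusted p = 0.0274), and the second was lost with DESeq2's size factors (adjusted p = 0.0631) or without any 1 of 5 libraries (KO 2 or 3, WT 1, 3 or 4, adjusted p = 0.0694 to 0.108).

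Asns stood at 31.6, 23.04, 28.6 and 21.99 CPM in KO, 3.40, 1.66, 1.51 and 0.86 CPM in Het and 1.46, 2.43, 1.11 and 0.83 CPM in WT. It rose by 3.82 ± 0.60 against Het (adjusted p = 1.6e-05) and 4.15 ± 0.61 against WT (adjusted p = 3.03e-06), with no left-out library ending either call. Pycr1, the proline enzyme, stood at 6.82, 5.96, 9.44 and 2.96 CPM in KO, 0.31, 4.41, 0.82 and 1.01 CPM in Het and 0.64, 1.04, 1.36 and 0.74 CPM in WT. Het 2 reached the range of the KO libraries, and the rise against Het (1.94 ± 0.80) did not pass (adjusted p = 0.175), while without Het 2 it did (3.12, adjusted p = 0.0412). Against WT Pycr1 rose by 2.72 ± 0.82 (adjusted p = 0.0401), a call lost without any of KO 1, 2 or 3 or WT 1 to 4 (adjusted p = 0.0628 to 0.127).

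Slc38a1, Slc1a5 and Slc6a9 did not pass. The log2 fold changes of Slc38a1 were -0.20 ± 0.11 and -0.29 ± 0.11, with levels of 165, 149, 137 and 139 CPM in KO and 141 to 196 CPM in the controls, and DESeq2's test called it lower against WT (-0.34, adjusted p = 0.0214). Slc1a5 (ASCT2) stood at 9.22, 8.16, 7.14 and 11.1 CPM in KO and 5.60 to 16.7 CPM in the controls, with intervals of -1.26 to 1.02 and -1.26 to 1.02. Slc6a9 stood at 16.4, 20.5, 35.6 and 21.7 CPM in KO and 5.84 to 22.7 CPM in the controls. The summed endothelial markers were at 63.97 to 131 CPM in KO against 107 to 260 in Het and 163 to 265 in WT, with 0 of 10 called against Het and 1 lower against WT. The summed lymphocyte markers, at 0.25 to 1.13 CPM in KO, lay below the 1.25 to 2.39 CPM in Het and 1.87 to 3.18 in WT, with 0 of 5 called. The astrocyte markers summed to 43.9 to 72.7 CPM in KO, 50.7 to 152.7 in Het and 48.2 to 153.5 in WT, with medians of -0.70 against Het and -0.99 against WT and 0 of 10 called. In each comparison 1 of 8 microglial markers was called lower, and against WT 1 of 5 neutrophil markers was. The microglial markers summed to 37592 to 40867 CPM in KO, 40637 to 46341 in Het and 42622 to 50413 in WT. Of these 8, 3 were positive against Het and 1 against WT (medians -0.11 and -0.15). The monocyte medians were -1.35 (2 of 5 positive) and -1.24 (1 of 5), with 0 called. Against Het 4 of 5 neutrophil and 5 of 5 red blood cell markers were positive (medians 0.96 and 0.12). None of the endothelial, lymphocyte or astrocyte markers was at 0 in all libraries of a group. Their part in the results was not tested.

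The KO effect at repopulation minus that in the ncRNA-poor naive set, with the mean of Het and WT as control in each, passed in Slc7a5 (1.09 ± 0.23, adjusted p = 0.0202), 1 of 10 genes, where 0.0923% of all genes passed. The values of Slc7a1 (1.11 ± 0.29), Slc1a4 (1.00 ± 0.32) and Asns (1.43 ± 0.64) were of similar size and did not pass (adjusted p = 0.12, 0.329 and 0.656), although Slc7a1 did by DESeq2's test and in the compared libraries alone (adjusted p = 0.0392 and 0.0102). The difference of Slc7a5 was 0.94 without KO naive 1 (adjusted p = 0.0811), the library that lay among the controls, and it was also lost without KO repopulation 2 or 3 (adjusted p = 0.063 and 0.101) and with the division of the naive libraries in the model (0.96, adjusted p = 0.164). The naive KO and WT libraries were read on another instrument than the rest, whose part in this difference was not tested.

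Within KO mice Slc7a5 was higher at repopulation than in naive animals by 0.72 ± 0.18 (adjusted p = 0.0141), 1 of 10 genes, where 3.06% of all genes passed in either direction. That call was lost without KO naive 1 or KO repopulation 3 (adjusted p = 0.0942 and 0.0722). Asns was higher by 1.62 ± 0.50 and did not pass (adjusted p = 0.0627), although it did without KO naive 4 (2.16, adjusted p = 0.00834) and by DESeq2's test (adjusted p = 0.0286). Slc38a2, at 0.46 ± 0.14, passed by DESeq2's test (adjusted p = 0.044) and without KO naive 4 or KO repopulation 1 (adjusted p = 0.0332 and 0.0371). Within WT mice Slc38a1 rose by 0.38 ± 0.10 (adjusted p = 0.0218), 1 of 10 genes, where 3.31% of all genes passed, and the call was lost with sex as a covariate or without WT naive 2 or WT repopulation 1, 2 or 4 (adjusted p = 0.0615, and 0.0633 to 0.124). Slc7a5, Slc1a4 and Slc7a1 lay on the lower side in WT, at -0.48 ± 0.19, -0.50 ± 0.27 and -0.57 ± 0.24, and did not pass, except Slc7a5 and Slc7a1 in the compared libraries alone (adjusted p = 0.0368 and 0.0398). Within each genotype, treatment and instrument cannot be told apart in these comparisons. All 7 border macrophage markers were called lower at repopulation than in naive mice in KO and in WT (medians -3.13 and -3.56), summing to 33.1 to 84.8 CPM and 29.9 to 77.4 CPM at repopulation. Of the other markers 2 of 10 endothelial and 1 of 8 microglial ones were lower in KO and 1 of 10 endothelial and 1 of 5 monocyte ones in WT, and their part in the results was not tested. These comparisons share libraries with those above.

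None of the 10 genes passed between Het and WT by edgeR's test. The count was 0 in naive ncRNA-poor mice (0.0217% of all genes passed), 0 at repopulation (0% of all genes) and 0 at depletion (0.00543% of all genes), and also 0 by DESeq2 in each. At an unadjusted p under 0.05 the number of genes was 0, 0 and 1. Naive Het and WT libraries were read on different instruments, so genotype and instrument cannot be told apart in the naive comparison. The intervals for Slc7a5 were -0.62 to 0.13 in naive mice and -0.41 to 0.38 at repopulation, and that of Asns at depletion was 0.18 to 2.87, where Het 1 and 2 were above 3 of the 4 WT libraries.

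Because the products of Slc7a5 and Slc3a2 join in a transporter, their counts were set against each other within each library, where scaling between libraries has no effect. A ratio of read counts does not show the amounts of the proteins or of the transporter. The pair was chosen after the fold changes had been seen in the same libraries. The tests therefore restate a difference already seen, and their adjustment does not cover the choice of pairs. The ratio of Slc7a5 to Slc3a2 counts was higher in KO than in Het libraries in the middle-depth naive set, which holds no WT library, at 0.44 to 0.81 in KO and 0.13 to 0.38 in controls (exact two-sided permutation test, adjusted p = 0.0117 over 10 ratio tests). At repopulation, where the controls were Het and WT, it was 0.61 to 0.70 in KO and 0.22 to 0.30 in controls (exact permutation test, adjusted p = 0.0135). All KO libraries were above all controls in both, and the geometric means were 0.52 against 0.28 and 0.66 against 0.27. How many other pairs of genes separate in this way was not counted.

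In the ncRNA-poor naive set the ratio was 0.32 to 0.52 in KO and 0.29 to 0.46 in controls (exact permutation test, adjusted p = 0.0233), with KO 1 among the controls. That call was lost without KO 4 or KO 5 or with Het as the only control (exact permutation test, adjusted p = 0.0559 for each KO library and 0.0794). At depletion it was 0.36 to 0.45 in KO and 0.17 to 0.29 in controls, where 2 against 6 libraries cannot give an exact two-sided p below 0.0714, the value found. Under cuprizone it was 0.35 to 0.47 in KO and 0.25 to 0.44 in controls and did not pass (exact permutation test, adjusted p = 0.286).

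Slc38a2 and Slc38a1 are neighbours on chromosome 15 and encode related carriers. The ratio of Slc38a2 to Slc38a1 counts was 1.46 to 2.35 in KO and 1.01 to 1.26 in controls at repopulation (exact permutation test, adjusted p = 0.0135), again without overlap. It was 1.20 to 1.52 in KO and 0.94 to 1.27 in controls in the middle-depth and 1.27 to 2.40 in KO and 1.16 to 1.43 in controls in the ncRNA-poor naive set (exact permutation tests, adjusted p = 0.0233 and 0.0233), where the ranges overlapped. The second of these was lost without KO 3, 4 or 5 or with Het as the only control (exact permutation test, adjusted p = 0.0606 to 0.119), and without KO 4 the log2 difference was 0.18 in place of 0.32. Under cuprizone the ratio was 1.17 to 2.18 in KO and 1.62 to 1.95 in controls (exact permutation test, adjusted p = 0.533) and at depletion 1.26 to 1.41 in KO and 1.00 to 1.15 in controls, with the same lowest possible p as above. The ratios and their tests were chosen after the fold changes had been seen.

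**Figure D4:**
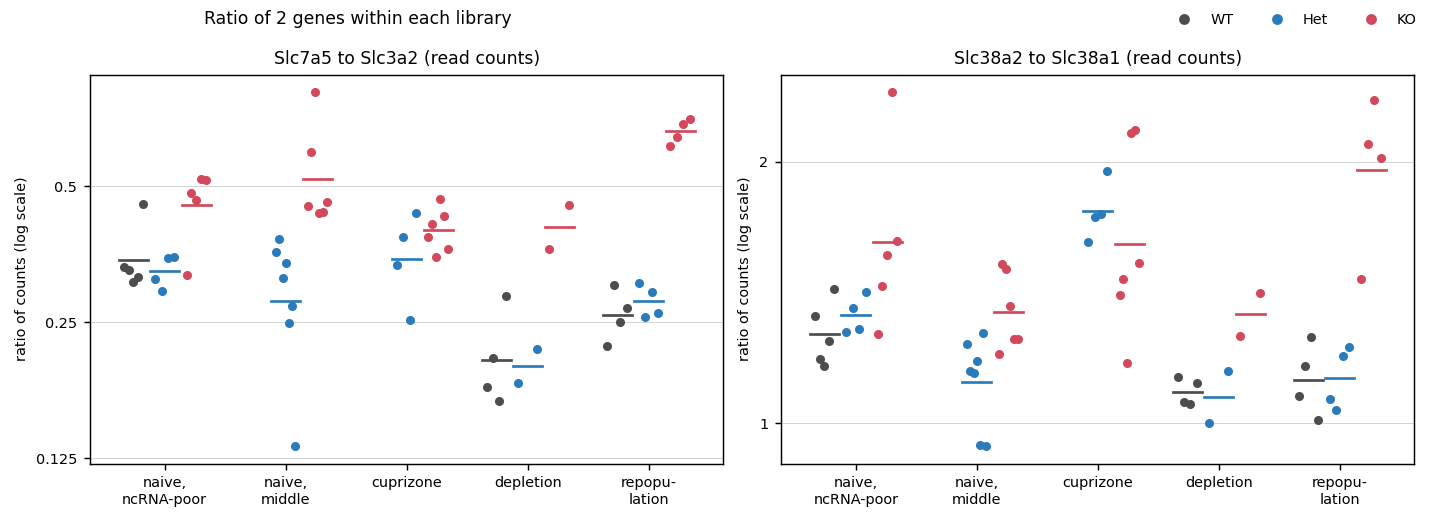
Ratio of read counts of Slc7a5 to Slc3a2 (left) and of Slc38a2 to Slc38a1 (right) in each library (points, log axis), by treatment and library set for WT, Het and KO, with geometric means as bars. At repopulation all 4 KO libraries lie above the 8 controls in both ratios, and under cuprizone KO and Het overlap in both.

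The genes were also compared with each other over all 64 libraries, each centred within its library set and treatment, so that genotype stays in the values. Slc7a5 followed the mean of the other 9 genes most closely (Pearson r = 0.90), then Slc7a1 and Slc1a4 (both 0.88), Slc38a2 (0.79), Asns (0.78), Slc3a2 (0.62) and Pycr1 (0.54). Slc6a9 was at 0.30, Slc1a5 at -0.10 and Slc38a1 at -0.11. Within groups, with genotype removed, the closest pairs were Slc7a5 with Slc1a4 (0.73), Slc7a5 with Slc7a1 (0.69) and Slc1a4 with Slc7a1 (0.66), while Slc7a5 with Slc3a2 stood at 0.28. Of other genes, those most like the mean of the 10 were Mthfd2 (0.91), an enzyme of mitochondrial folate metabolism, Atf5 (0.87), a stress transcription factor, Gars (0.84), the glycyl-tRNA synthetase, Sesn2 (0.84), a brake on mTORC1, and Hif1a (0.83), the oxygen-regulated transcription factor. These are descriptions, since the libraries share their processing and groups.

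The shares of all genes called higher and lower were 1.48% and 1.25% against Het and 1.15% and 0.787% against WT in the ncRNA-poor naive set, 7.68% and 6.07% in the middle-depth set, 0.348% and 0.223% in the deep set, 8.16% and 5.83% under cuprizone, 1.1% and 0.614% at depletion, and 2.15% and 2.48% against Het and 2.26% and 2.53% against WT at repopulation. Against these shares 3 lists of other genes of the pathway were read. Of 31 measured amino acid transporters outside the 10 genes, 0 were called in the ncRNA-poor or deep naive sets, 5 rose in the middle-depth set and 0 fell, 5 rose and 2 fell under cuprizone, and 1 rose at depletion and 1 at repopulation in each comparison. In the middle-depth set these were led by the aromatic amino acid carrier Slc16a10 (0.72 ± 0.13), the lysosomal cystine exporter Ctns (0.53 ± 0.10), the y+L carrier Slc7a7 (0.40 ± 0.12) and the taurine carrier Slc6a6 (0.31 ± 0.10). The median log2 fold change of the 31 was 0.05 there, against 0.94 for the 10 genes and 0.00 for all genes. The 2 falls of 31 under cuprizone are near the share of all genes called lower there (5.83%) and are no result about these transporters, nor is 1 rise of 31 at repopulation, where 2.15% and 2.26% of all genes were called higher.

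Of 22 other genes of amino acid synthesis and turnover, 4 rose in the ncRNA-poor naive set against either control, 5 rose and 1 fell in the middle-depth set, 4 and 2 under cuprizone, and 0 were called at depletion or in the deep set. At repopulation 4 rose and 1 fell against Het and 5 and 1 against WT. The shares of all genes called higher were 7.68% in the middle-depth set, 8.16% under cuprizone and 1.15% to 2.26% in the ncRNA-poor naive and repopulation comparisons. Falls of 1 or 2 of 22 are near the shares of all genes called lower, 2.48% to 6.07% in these comparisons. The serine synthesis genes Phgdh (1.17 ± 0.15) and Psat1 (1.51 ± 0.22), Shmt2 of mitochondrial serine breakdown (0.85 ± 0.15) and the aspartate transaminase Got1 (0.98 ± 0.18) led in the middle-depth set. They were also the 4 called in the ncRNA-poor set, with Phgdh at 0.94 ± 0.18 against Het. At repopulation Phgdh rose by 1.63 ± 0.19 against WT and Psat1 by 1.85 ± 0.28. The glutamine synthetase gene Glul, also an astrocyte gene, fell in the middle-depth set (-0.52 ± 0.11), under cuprizone (-0.73 ± 0.13) and at repopulation (-0.70 ± 0.14 against WT).

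Of 21 genes of ATF4 and stress signalling, 7 rose in the ncRNA-poor naive set against Het and 6 against WT, 6 rose and 3 fell in the middle-depth set, 2 rose in the deep set, 5 rose and 4 fell under cuprizone, 5 rose at depletion, and 8 and 10 rose at repopulation against Het and WT. All genes were called higher in 1.48%, 1.15%, 7.68%, 0.348%, 8.16%, 1.1%, 2.15% and 2.26% in the same order, and lower in 6.07% in the middle-depth set and 5.83% under cuprizone. Atf5 rose by 3.43 ± 0.31 in the middle-depth set, Eif4ebp1, an inhibitor of translation initiation, by 1.10 ± 0.17, Sesn2 by 1.35 ± 0.22 and the glutathione-degrading enzyme Chac1 by 3.16 ± 0.71. The eIF2 phosphatase subunit Ppp1r15a (-2.03 ± 0.46) and the transcription factor Atf3 (-2.24 ± 0.57) fell there. Atf4 itself, named here outside the rule for named genes, did not pass in the ncRNA-poor (0.24 ± 0.18 against Het) or middle-depth naive set (-0.43 ± 0.15). It fell under cuprizone (-1.004 ± 0.18) and rose at repopulation against WT (0.66 ± 0.19, adjusted p = 0.0341), while against Het it did not pass (0.53 ± 0.19). These lists were written with earlier results of these data known and are no independent evidence.

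For orientation in GRCm38, Slc7a5 lies at chr8:121881150-121907694 on the minus strand, Slc3a2 at chr19:8706882-8723369 (minus), Slc1a4 at chr11:20302180-20332713 (minus) and Slc1a5 at chr7:16781340-16798274 (plus). Slc38a1 lies at chr15:96571418-96642913 (minus), Slc38a2 at chr15:96687392-96699730 (minus), Slc6a9 at chr4:117834506-117875198 (plus) and Slc7a1 at chr5:148327410-148399904 (minus). Asns lies at chr6:7675169-7693254 (minus) and Pycr1 at chr11:120635712-120643769 (minus). GENCODE places the protein-coding genes Ccdc24 and B4galt2 and the noncoding Gm17114 on the strand opposite to Slc6a9 and Gm20388 on the strand opposite to Slc7a5. Whether counting used strand is not stated, so reads of these partners could enter the values of Slc6a9 and Slc7a5.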

How the data were processed

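The study sequenced RNA of sorted mouse microglia (SMARTer Stranded Total RNA-seq Kit v2, single-end reads, per the labels' protocols). The authors deposited 1 table of raw counts per gene for 64 libraries. Per the submitters' processing notes, STAR 2.6.1d and Salmon 1.5.2 are listed with bcl2fastq 2.20, Trim Galore 0.6.7 and the build GRCm38, in no stated order; which of them gave the counts, and whether strand was used, is not given in the sources used here. Depth was 2.7 to 24 M counts per library, and 3 counts correspond to 0.15 to 0.94 CPM, counting error only.

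Groups came from the labels. Library sets were defined from the share of Gm26917 and Yam1 (under 1%) and depth (over 15 M, under 5.5 M). One mean per group and set was fitted in edgeR 4.0.16 (R 4.3.3; quasi-likelihood test, TMM, filterByExpr with minimum count 10 and total 15, 18413 genes kept), with Benjamini-Hochberg adjustment over all genes and a threshold of 0.05. CPM in the text are TMM-scaled, and intervals are 95%. Alternatives were DESeq2 1.42.0, other size factors, no filter, only the compared libraries, no sets, sex read from Y-linked genes, the replicate number as a block, and each library left out (keeping the genes, scaling and trended dispersion of the full fit). Leaving out libraries of groups of 6 or 7, the divisions within sets and the ratio tests were chosen after seeing the data. Whether the replicate numbers pair the samples could not be judged, since only same-numbered libraries were correlated. On simulated counts with 200 changed genes, 96% of 4-fold and 63% of 2-fold changes were recovered for the middle-depth naive comparison, 95% and 66% for cuprizone, and 87% and 50% for repopulation KO against WT, with 2, 3 and 6 false calls. The changed genes were drawn only from well-counted genes, and the simulated spread followed the trend over all genes without a spread of each gene's own. These rates therefore need not hold for genes with few counts, such as Asns and Pycr1, or with a wide spread. Each of the 10 genes is described. Of each pathway list, counts are given and up to 4 called genes with the smallest p in that comparison are named, with up to 2 called the opposite way, and the 5 genes most correlated with the mean of the 10. The members and lists were chosen with earlier results of these data known. Ratios were compared by exact permutation (Python 3.11.15).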

Additional observations from a re-analysis of the deposited data

Results flagged for a closer look

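Of 110 groups of 4 to 10 libraries checked, 12 held a library far from its group by Dixon's criterion, where chance gives about 1 in 20. Slc7a5 accounted for 4 of them: WT naive 5 at 247 CPM (others 179.5 to 191), Het repopulation 1 at 150.3 CPM (135 to 136), Het naive 2 at 146 CPM (169 to 174) and Het naive 11 at 35.7 CPM (67.0 to 88.6). Slc3a2 was high in WT repopulation 3 at 608 CPM (515 to 519.7), Slc1a4 low in WT depletion 3 at 4.25 CPM (9.99 to 11.8) and Slc38a2 low in Het repopulation 4 at 172 CPM (196 to 199). Slc1a5 was low in WT naive 5 at 4.50 CPM (7.20 to 8.67) and high in Het naive 2 at 8.75 CPM (2.49 to 2.97). Pycr1 was high in WT naive 2 at 3.34 CPM (0.56 to 1.00), in WT depletion 1 at 1.29 CPM (0.20 to 0.32) and in Het naive 9 at 4.81 CPM (0 to 0.48).

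The KO effect on Slc7a5 differed between repopulated and naive ncRNA-poor mice by 1.09 (log2) in edgeR's test of the difference, which was lost without KO naive 1 or KO repopulation 2 or 3.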

How the results depend on the processing

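Alternatives are summarised for 68 values of a gene in a comparison, 43 of them called. None of the 68 reversed its direction. They do not cover each of the 10 genes in each of the 19 comparisons, so values near 0, which change sign most easily, may be missing. The causes of the changes below were not tested. Without library sets in the model, the number of genes called moved from 4 to 2 for naive KO against WT, from 3 to 5 in the deep set, from 4 to 1 under cuprizone, from 4 to 2 at depletion, from 7 to 4 at repopulation against WT, from 0 to 4 for naive Het against WT, from 1 to 0 for repopulation against naive in WT, from 1 to 7 for the same in KO, from 3 to 0 for depletion against naive in WT, and from 1 to 0 for the difference of the KO effect between repopulation and naive mice. That setting moved the median of all genes by up to -0.13 (log2). With only the compared libraries the counts were 1 for naive KO against WT, 3 in the middle-depth set, 1 under cuprizone, 2 for the repopulation difference and 3 for repopulation against naive in WT. DESeq2's test gave 2 for the repopulation difference and 3 for repopulation against naive in KO. Without a filter or with sex as a covariate, repopulation against naive in WT gave 0. With the division of the ncRNA-poor naive libraries, KO against Het gave 2 and the repopulation difference 0, and with naive replicates 1 to 4, KO against WT gave 1.

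With 1 library left out the number of genes called ranged from 3 to 5 (naive KO against Het) and 1 to 4 (against WT), 4 to 6 in the middle-depth and 0 to 1 in the deep set, 2 to 5 under cuprizone, 2 to 4 at depletion, and 6 to 7 against Het and 5 to 7 against WT at repopulation. It ranged from 0 to 1 for the differences of the KO effect at repopulation and under cuprizone, 0 to 1 and 0 to 3 for repopulation against naive in WT and KO, and 2 to 3 for depletion against naive in WT. Where this leaves 1 library in a group, that library is assumed to vary like the others.

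The deviations of same-numbered libraries were correlated at -0.25 to 0.25 (43 pairs, median 0.007, 10 over 0.1). Differently numbered libraries were not correlated, so these values do not show whether the numbers pair the samples. With the replicate number as a block, 5 genes were called in naive KO against Het, 6 in the middle-depth set, 4 in the deep set, 5 under cuprizone, 3 at depletion and 7 in each repopulation comparison, and the count of all genes rose from 105 to 235 in the deep set, from 33 to 65 for the cuprizone difference and from 4 to 140 for naive Het against WT. Over all genes, with only the compared libraries, the calls went from 356 to 154 for naive KO against WT, from 2531 to 767 in the middle-depth set, from 2576 to 900 under cuprizone, and from 851 to 1537 and 881 to 1415 at repopulation. DESeq2's test gave 984 against 502 for naive KO against Het, 388 against 105 in the deep set, 622 against 316 at depletion, and 1377 and 1374 at repopulation.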

Other observations

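The 3 old naive Het libraries, which enter no comparison above, are deep libraries like adult Het 12 and 13. Asns stood at 16.9, 4.36 and 15.3 CPM in the old and 0.62 and 2.11 CPM in the adult Het libraries. Slc7a1 stood at 82.1, 51.04 and 62.6 against 25.2 and 24.6 CPM, Slc7a5 at 110.0, 70.2 and 66.01 against 55.4 and 62.4 CPM and Slc1a4 at 15.7, 11.3 and 9.04 against 10.3 and 9.88 CPM. All old libraries lay above both adult ones in Asns, Slc7a1, Slc7a5 and Slc38a1, the last at 134, 120.0 and 124 against 109 and 99.6 CPM. The share of all genes for which this holds was not counted. For KO against Het in the deep set, both KO libraries lay above both Het libraries in 23% of all genes. That share is of another comparison with other numbers of libraries, so it is no background for the old libraries. The separation of these genes is therefore no result about age. The difference between old and adult libraries was not tested here.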
